A study of Mus musculus with 6 samples.

Results

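The genes described here make, sense and move cholesterol. They were chosen by name from a list of 32 genes, and every probe set annotated to exactly 1 of them was taken. A probe set is a group of short probes that together read 1 transcript on the array, and a gene can have several. The list matched 65 probe sets of 30 genes, among 18193 genes with such a probe set, while the expression of Acat2 and Soat1 was not analysed here. Expression was measured in total RNA of the medial prefrontal cortex, a frontal region that takes part in fear extinction. Tissue from both hemispheres came from 6 male 129S1/SvImJ mice, an inbred strain, at 8 to 10 weeks of age. All of them had fear extinction training 2 h before. The control diet was fed to 3 mice, numbered 1, 5 and 9. The other 3, numbered 3, 7 and 11, received a zinc diet whose label is ZnR and whose composition the sources used here do not state. Each animal gave 1 array, and so few arrays limit how precisely any difference is known.

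The adult brain makes nearly all of its own cholesterol, because lipoproteins of the blood do not pass the blood-brain barrier. Astrocytes and oligodendrocytes, which build myelin, are the main producers, and neurons take up part of what they use from lipoproteins that glia release. Synthesis is set by the sterol regulatory element binding proteins (SREBPs), membrane-bound transcription factors that Scap carries to the Golgi apparatus for cleavage when sterols are low and that Insig proteins hold back when sterols are high. Surplus cholesterol leaves cells through ABC transporters or, in neurons, after hydroxylation by Cyp46a1.

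No sterol gene passed the test for a difference between diets. Values are log2 expression, so a difference of 1 is a 2-fold change, and a probe set was tested if it exceeded 4 on at least 3 arrays. Of the 65 probe sets, 54 met this and 11 did not, and each of the 30 genes kept at least 1. None of the 54 passed an adjusted p of 0.05 (limma, Benjamini-Hochberg over all 25381 probe sets tested), against 1.47% of all probe sets. The smallest adjusted p was 0.0995, for Npc2. At an unadjusted p under 0.05, 3 of the 54 (5.56%) were higher in ZnR mice and 2 (3.7%) lower, against 9.06% and 7.9% of all probe sets. The mice of the diets did not overlap in 5 probe sets that were higher (9.26%) and 7 that were lower (13%), against 13.1% and 10.6% of all probe sets. These shares lie below or near those of the whole array.

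The differences were small in both directions. With each gene represented by its probe set of highest mean, 16 of the 30 genes were lower on average in ZnR mice and 14 higher, with a median difference of -0.005 against 0.0293 over 11749 genes. The median size of the difference, sign ignored, was 0.07 for the sterol genes and 0.12 for all genes. The moderated standard error of the 30 differences had a median of 0.11 and ran from 0.08 to 0.23. For 27 of the 30 genes the 95% interval of the difference lay within a 1.5-fold change in either direction, and for all 30 it lay within a 2-fold change. The same held for 83.1% and 96.4% of all genes. The 95% intervals are moderated intervals of single genes and are not adjusted for the number of genes.

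**Figure D1:**
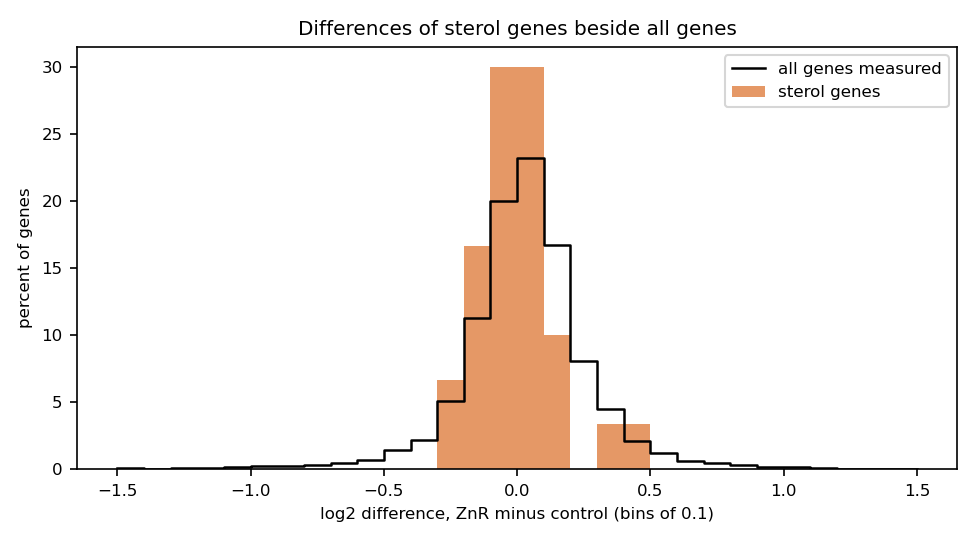
Percent of genes in bins of the log2 difference between diets (ZnR minus control), for the 30 sterol genes as bars and for all 11749 genes as a line, 1 probe set per gene. Of the sterol genes, 30% lie in each of the bins on either side of 0, and the highest single gene is Srebf1 at 0.47; the plot leaves out genes beyond 1.5 in size.

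Promoter sequences are shown for 3 genes, because SREBPs act through short elements near the start of the sterol genes. Hmgcs1 had every kept probe set lower on average, Hsd17b7 had the most negative difference of a single probe set (-0.42) and Npc2 the smallest adjusted p, in the other direction. The sequences are the 250 bases before the gene start in RefSeq (build GRCm38.p6), written in the direction of the gene, at chr13:119690101-119690350 on the plus strand for Hmgcs1, chr1:169969206-169969455 on the minus strand for Hsd17b7 and chr12:84773113-84773362 on the minus strand for Npc2. Capitals mark matches, on either strand, to TCACNCCAC, a form of the sterol regulatory element, and to CCAAT, the core of the box bound by NF-Y, which reads ATTGG on the other strand.
Hmgcs1: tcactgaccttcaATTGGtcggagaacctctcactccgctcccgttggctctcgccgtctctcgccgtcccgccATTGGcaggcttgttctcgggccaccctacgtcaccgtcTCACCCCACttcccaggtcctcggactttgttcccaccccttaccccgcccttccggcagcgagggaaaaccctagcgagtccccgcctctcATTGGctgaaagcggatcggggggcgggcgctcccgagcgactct
Hsd17b7: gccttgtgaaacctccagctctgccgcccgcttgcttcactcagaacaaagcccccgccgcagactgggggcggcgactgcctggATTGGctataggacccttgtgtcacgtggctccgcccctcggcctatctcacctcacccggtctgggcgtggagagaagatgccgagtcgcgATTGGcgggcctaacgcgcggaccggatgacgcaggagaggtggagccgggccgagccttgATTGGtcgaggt
Npc2: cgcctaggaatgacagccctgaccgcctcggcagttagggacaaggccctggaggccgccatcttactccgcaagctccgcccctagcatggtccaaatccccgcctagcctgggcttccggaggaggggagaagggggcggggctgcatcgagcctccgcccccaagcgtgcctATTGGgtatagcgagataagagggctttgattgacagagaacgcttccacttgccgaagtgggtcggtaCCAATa
Hmgcs1 held 1 sterol element, which began 137 bases before the start, and 3 CCAAT matches. Hsd17b7 held 3 CCAAT matches and Npc2 held 2, and neither held TCACNCCAC in this window. No match of one motif overlapped a match of the other. RefSeq promoters were matched for 25 of the 32 listed genes, with 33 starts in all. CCAAT was in 66.7% of these starts and in 33.8% of all 32851 promoters. TCACNCCAC was in 1 of the 33 starts (3.03%), the Hmgcs1 one shown above, and in 1.05% of all promoters. A match is a description of the letters and not a measured binding site.

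Among the genes that sense sterols, Srebf1 stood apart from the others. Srebf1 encodes an SREBP that chiefly drives fatty acid synthesis. Its 1 probe set measured 6.48, 6.98 and 6.87 in control mice 1, 5 and 9 and 7.37, 7.02 and 7.34 in ZnR mice 3, 7 and 11. All 3 ZnR mice were above all 3 control mice, though ZnR mouse 7 lay only just above control mouse 5. The difference was 0.47 ± 0.16 SE (1.38-fold, 95% interval 0.10 to 0.84, limma adjusted p = 0.19). It was 0.89 between control mouse 1 and ZnR mouse 3, and 0.25 between the means of the other mice. Those 2 mice are also the pair with low 18S ribosomal RNA signal, described further on.

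The other sterol sensors lay closer to 0. Srebf2, which encodes the SREBP that chiefly drives cholesterol synthesis, measured 7.93 ± 0.11 in control and 7.96 ± 0.23 in ZnR mice (SD, n = 3 per diet), a difference of 0.03 ± 0.13 SE. Its other probe set measured -0.06 ± 0.09. Scap, the escort of SREBPs, differed by 0.08 ± 0.09. Insig1, which retains the Scap-SREBP complex and is itself a target of SREBPs, measured 9.19, 9.06 and 9.24 in control mice and 9.14, 9.20 and 9.13 in ZnR mice. The diets overlapped fully there, with a difference of -0.01 ± 0.09 and a 95% interval from -0.21 to 0.19. The 3 probe sets of Insig2, a second retention protein, differed by 0.07, 0.07 and 0.15, and in the last of them every ZnR mouse was above every control mouse. Over the 5 sensing genes the median difference was 0.07, with 4 higher on average and 1 lower.

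**Figure D2:**
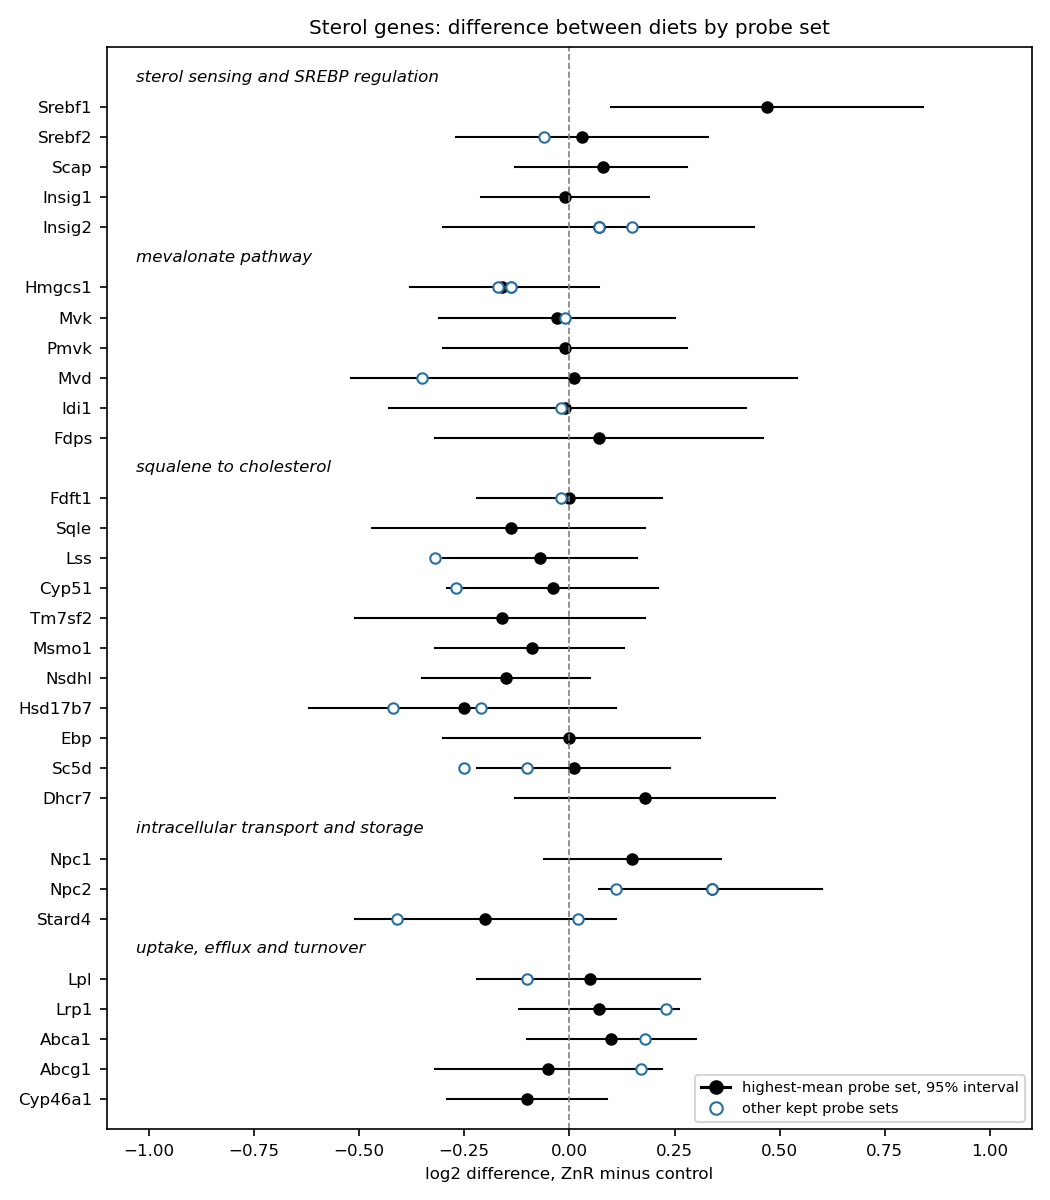
Log2 difference between diets (ZnR minus control) for every kept probe set of the 30 sterol genes, grouped by role. Filled points are the probe set of highest mean with its 95% moderated interval, and open points are the gene's other probe sets, drawn over the filled point where both coincide (Insig2, Npc2). Only the intervals of Srebf1 and Npc2 leave out 0, and neither gene passed the adjusted threshold.

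The mevalonate pathway turns acetyl units into the building blocks of sterols. Its 6 measured genes had a median difference of -0.01, with 4 lower on average and 2 higher. Hmgcs1 makes the substrate of the rate-limiting step and is a standard target of SREBPs. Its 4 kept probe sets differed by -0.14, -0.14, -0.16 and -0.17, with unadjusted p from 0.06 to 0.213 and adjusted p from 0.317 to 0.548. The probe set with the smallest spread measured 9.91, 9.84 and 9.87 in control mice and 9.66, 9.73 and 9.71 in ZnR mice. There the diets did not overlap, whereas in the probe set of highest mean ZnR mouse 7 (12.35) reached the level of control mouse 5 (12.35). The 4 probe sets read 1 gene and are not independent.

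The other mevalonate genes varied more within a diet than between diets. Mvd, the decarboxylase, measured 5.24, 5.10 and 4.69 in control mice and 5.39, 5.12 and 4.55 in ZnR mice, so its difference of 0.01 ± 0.23 had the widest error of the 30 genes. Its other probe set differed by -0.35 ± 0.18 (adjusted p = 0.382). Fdps, which makes farnesyl diphosphate, measured 9.18, 9.04 and 8.62 in control and 9.16, 9.12 and 8.77 in ZnR mice, a difference of 0.07 ± 0.17. In both genes control mouse 9 and ZnR mouse 11 were the lowest of their diets. The kinases Mvk (-0.03 ± 0.12) and Pmvk (-0.01 ± 0.12) and the isomerase Idi1 (-0.01 ± 0.18) had differences far below their errors. The second probe sets of Mvk and Idi1 measured -0.01 and -0.02.

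The steps from squalene to cholesterol held more genes with a lower than a higher mean in ZnR mice, by small amounts. Of the 11 genes, 8 were lower on average and 3 higher (72.7% lower, against 42.4% of all genes), with a median of -0.07 against 0.03 over all genes, and none passed. The mean over these genes was 8.47, 8.38 and 8.25 in control mice 1, 5 and 9 and 8.28, 8.41 and 8.21 in ZnR mice 3, 7 and 11. The diets overlapped, and the mean differed by -0.19 in the low-18S pair and by 0 among the rest. The median was 0 without control mouse 1.

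Hsd17b7, which encodes the ketoreductase of sterol demethylation, was lower on average in all 3 kept probe sets. The one with the largest difference measured 5.02, 4.75 and 4.71 in control mice and 4.64, 4.49 and 4.08 in ZnR mice. Every ZnR mouse was below every control mouse, with ZnR mouse 11 the lowest. The difference was -0.42 ± 0.16 SE (1.34-fold lower, 95% interval -0.79 to -0.05, adjusted p = 0.242), and -0.26 without ZnR mouse 11. The others differed by -0.21 ± 0.09 (adjusted p = 0.303), also without overlap, and by -0.25 ± 0.16 (adjusted p = 0.472), with overlap. Some of these values lie close to the filter at 4.

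Sc5d, the sterol desaturase, gave different answers by probe set. One probe set measured 5.38, 5.36 and 5.29 in control mice and 5.0, 5.06 and 5.21 in ZnR mice, with no overlap and a difference of -0.25 ± 0.09 SE (adjusted p = 0.21). Another measured 8.91, 8.91 and 8.85 against 8.73, 8.82 and 8.83, again without overlap, a difference of -0.10 ± 0.08 (adjusted p = 0.602). The third, of highest mean, overlapped fully and differed by 0.01 ± 0.10. The size and sign of the Sc5d difference thus varied between probe sets.

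Nsdhl, the dehydrogenase that acts with Hsd17b7 on the sterol nucleus, measured 8.18, 8.10 and 8.01 in control mice and 7.92, 7.99 and 7.93 in ZnR mice. The groups did not overlap, though control mouse 9 and ZnR mouse 7 lay close together, and the difference was -0.15 ± 0.08 (adjusted p = 0.422). Lss, which closes the sterol rings, differed by -0.07 ± 0.10 in its probe set of highest mean and by -0.32 ± 0.15 (adjusted p = 0.356) in another, where the diets did not overlap. Cyp51, the first demethylase, differed by -0.04 ± 0.11 and -0.27 ± 0.16 in its 2 kept probe sets. Msmo1, which removes further methyl groups, differed by -0.09 ± 0.10, and the sterol reductase Tm7sf2 by -0.16 ± 0.15.

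Sqle, the epoxidase that commits squalene to sterols, measured 9.62, 9.22 and 9.14 in control mice and 9.31, 9.15 and 9.10 in ZnR mice. Control mouse 1 was above all others, and the difference of -0.14 ± 0.14 ranged from -0.24 to 0 over the alternative fits. Fdft1, the squalene synthase, differed by 0 ± 0.09 and -0.02 ± 0.11, and the isomerase Ebp by 0 ± 0.13. Dhcr7, a reductase that completes cholesterol, was higher on average, at 7.72, 7.88 and 7.37 in ZnR mice against 7.45, 7.5 and 7.49 in control mice. ZnR mouse 11 lay below all control mice, and the difference was 0.18 ± 0.13 (adjusted p = 0.556).

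**Figure D3:**
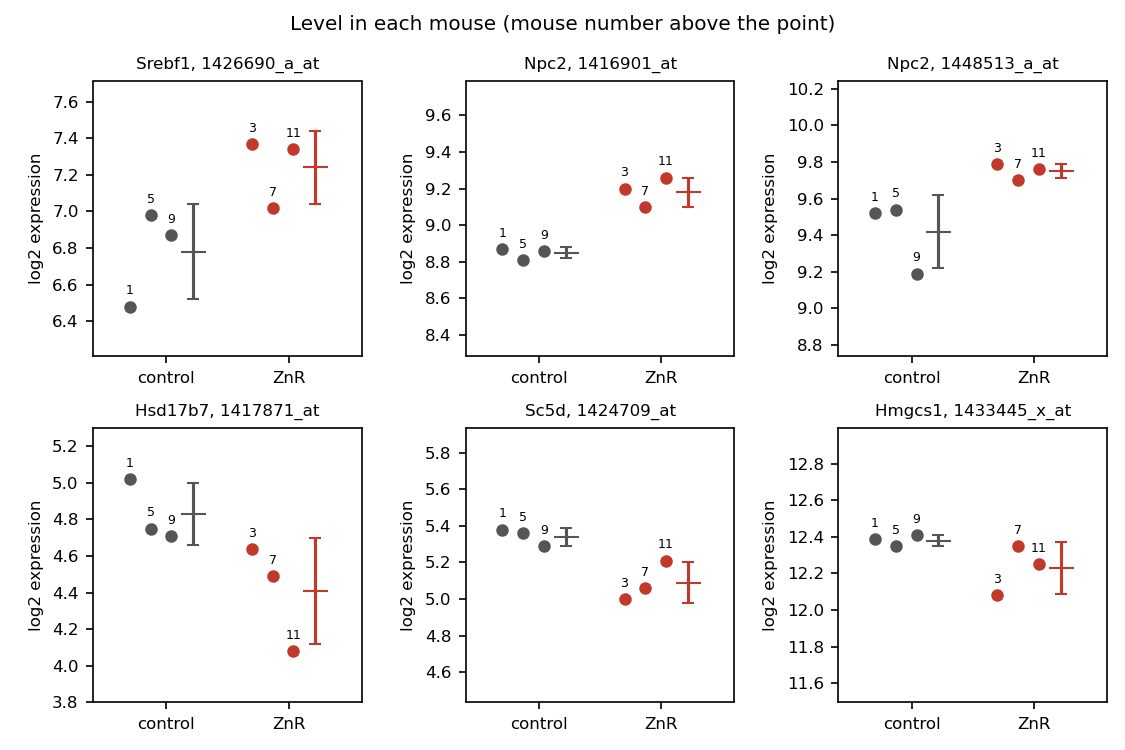
Log2 expression in each mouse for 6 probe sets of 5 sterol genes, with the mean and SD of each diet (n = 3) beside the points; every panel spans 1.5 log2 units. The diets do not overlap for Srebf1, both probe sets of Npc2, Hsd17b7 and Sc5d, while for Hmgcs1 ZnR mouse 7 sits level with control mouse 5.

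The genes that move cholesterol out of lysosomes held the smallest p of the list. Npc2 encodes a soluble lysosomal protein that hands cholesterol to the membrane protein Npc1. In one probe set it measured 8.87, 8.81 and 8.86 in control mice and 9.20, 9.10 and 9.26 in ZnR mice. The ZnR mice were all higher than the control mice. The difference was 0.34 ± 0.08 SE (1.26-fold, 95% interval 0.14 to 0.53, limma adjusted p = 0.0995), with 0.32 for the low-18S pair taken alone and 0.34 for the remaining mice. The adjusted p was 0.022 when arrays were weighted by quality, the only one of 17 alternative fits in which a sterol gene passed. In that fit 1 of the 54 sterol probe sets passed, against 2003 of all 25381 probe sets. A second probe set measured 9.52, 9.54 and 9.19 against 9.79, 9.70 and 9.76, also without overlap, a difference of 0.34 ± 0.11 (adjusted p = 0.19), and 0.22 without control mouse 9. The third overlapped and differed by 0.11 ± 0.18.

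Npc1 measured 7.77, 7.65 and 7.81 in control mice and 7.99, 7.82 and 7.88 in ZnR mice, which just failed to overlap, a difference of 0.15 ± 0.09 (adjusted p = 0.456). Stard4, a cytosolic sterol carrier and a target of SREBPs, differed by -0.20 ± 0.13, -0.41 ± 0.19 and 0.02 ± 0.13 in its 3 probe sets, all with overlapping mice. Its probe set at -0.41 had an adjusted p of 0.317.

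The genes of uptake, efflux and turnover differed little. Lpl, a lipase that binds and processes lipoproteins, differed by 0.05 ± 0.11 and -0.10 ± 0.11, and Lrp1, a large lipoprotein receptor, by 0.07 ± 0.08 and 0.23 ± 0.12. The cholesterol exporters Abca1 (0.10 ± 0.09 and 0.18 ± 0.13) and Abcg1 (-0.05 ± 0.12 and 0.17 ± 0.12), both standard targets of the oxysterol receptors, had adjusted p of 0.522 or more. Cyp46a1, which neurons use to export cholesterol, measured 9.99, 9.89 and 9.85 in control mice and 9.85, 9.78 and 9.80 in ZnR mice, a difference of -0.10 ± 0.08 (adjusted p = 0.588). Its 95% interval ran from -0.29 to 0.09. Over these 5 genes the median difference was 0.05.

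Other genes of sterol and lipid metabolism were read from 7 lists, of which 67 of 81 genes were measured. With each gene read by its probe set of highest mean, only the sterol carrier gene Osbpl1a passed, 1 of 67, against 1.92% of all genes. A probe set of Me1 with a lower mean, given below, also passed. Osbpl1a encodes an oxysterol-binding protein of late endosomes. It measured 11.43, 11.38 and 11.40 in control mice and 10.73, 10.86 and 10.90 in ZnR mice, so it fell 1.49-fold (-0.58 ± 0.08 SE, limma adjusted p = 0.0292). The second probe set of Osbpl1a also passed (-0.60 ± 0.10, adjusted p = 0.0405). Without any 1 of the 6 mice the adjusted p of the first was 0.0666 to 0.119, that of the second was 0.0668 to 0.153, and without the low-18S pair they were 0.153 and 0.191. Of the 16 intracellular sterol carriers 9 were higher on average and 7 lower, with a median of 0.04. Gramd1c, which carries cholesterol between membranes, measured 3.52, 3.78 and 3.95 in control mice and 4.08, 4.34 and 4.71 in ZnR mice. It met the level filter of 4 only through the ZnR mice, so it could only count as higher. Its difference near that floor was 0.63 ± 0.18 (limma adjusted p = 0.133, and 0.0362 with array weights).

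Fatty acid synthesis is the pathway that Srebf1 chiefly serves. Of 12 measured enzymes 9 were higher on average and 3 lower, with a median of 0.14 against 0.03 over all genes, and none passed in its probe set of highest mean. The desaturase gene Scd1 measured 10.93, 10.87 and 10.89 in control mice and 11.08, 11.15 and 11.16 in ZnR mice, without overlap, a difference of 0.23 ± 0.08 (adjusted p = 0.191). Me1, which supplies reducing power, went the other way with -0.38 ± 0.10 (adjusted p = 0.128, and 0.0365 with array weights), although a second probe set of Me1 passed (-0.63 ± 0.08, adjusted p = 0.0242). Without any 1 mouse its adjusted p was 0.0549 to 0.0983.

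In the probe sets of highest mean, the remaining lists held no gene past the threshold. This holds for the fit with the level filter at 4 and without block, trend or weights. Among 7 genes of SREBP processing and degradation, 5 were higher on average, with a median of 0.02. Over all 11749 genes 6770 were higher, with a median of 0.03, beside which this and the following counts stand. Fbxw7, part of a ubiquitin ligase that degrades nuclear SREBPs, differed by -0.45 ± 0.09 (adjusted p = 0.0615) and in its other probe set by -0.40 ± 0.08 (0.0613). The first of these passed when the low-18S pair formed a block (0.0437), with a filter at 6 (0.037), a mean-variance trend (0.00899) or array weights (0.0108). Mbtps1, the first protease of SREBP cleavage, differed by 0.33 ± 0.09 (0.129) and in its other probe set by -0.11 ± 0.27 (0.886). Of 8 oxysterol receptor and target genes 4 were higher, with a median of -0.02, led by Mylip (-0.31 ± 0.14) and Rxrg (0.35 ± 0.19). Mylip was -0.16 without control mouse 1. Rxrg was 0.54 without control mouse 1, 0.19 without control mouse 9 and 0.22 without ZnR mouse 3. Of 10 isoprenoid and other sterol pathway genes 7 were higher, with a median of 0.05, led by Nus1 and Fnta (both 0.18 ± 0.08). Of 9 lipoprotein receptors and carriers 6 were higher, with a median of 0.03. The sorting receptor Sorl1 measured -0.30 ± 0.08 (0.129) and the carrier Apod 0.45 ± 0.18 (0.268), with Apod at 0.26 without ZnR mouse 11 and 0.65 without ZnR mouse 7. Sorl1 passed with a mean-variance trend (0.0286). Of 5 sterol breakdown enzymes 3 were higher, with a median of 0.06, led by Cyp11a1 (-0.57 ± 0.15, adjusted p = 0.108) and Hsd3b7 (0.29 ± 0.10). Cyp11a1 passed when that pair formed a block (0.0356) or with array weights (0.0262). Both Cyp11a1 (4.34 to 5.3) and Hsd3b7 (4.51 to 5) lay close to the level filter of 4 in the 6 mice.

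**Figure D4:**
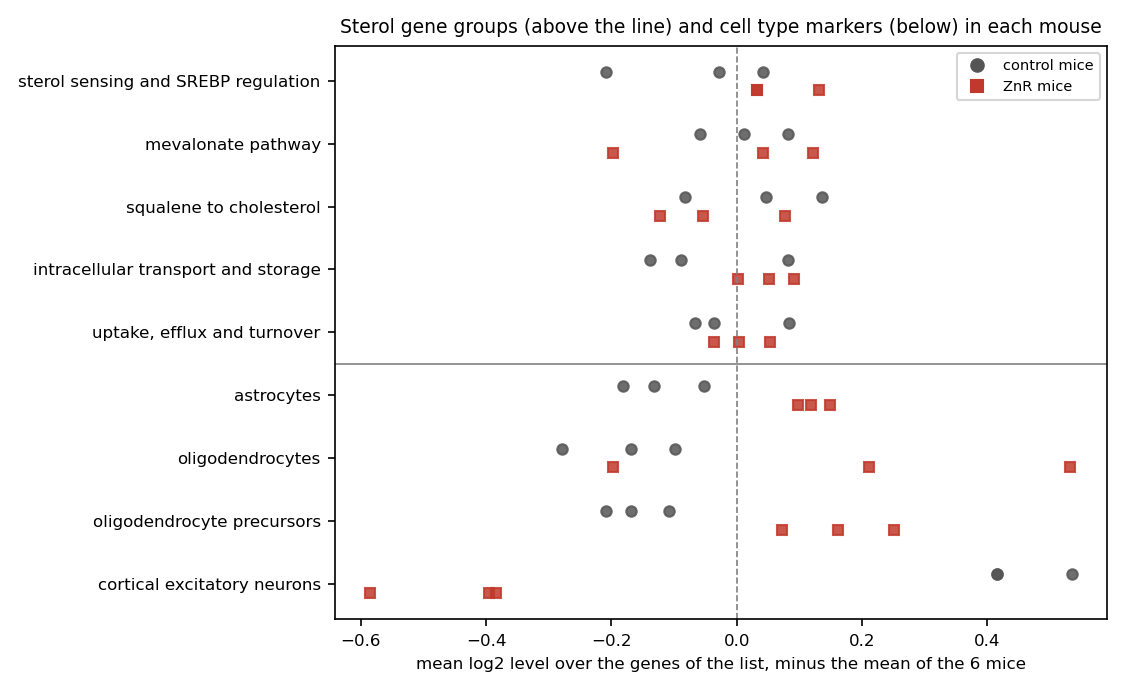
Mean log2 level over the genes of each list in each mouse, minus the mean of the 6 mice, for the 5 groups of sterol genes above the line and markers of 4 cell types below it. The diets overlap in every sterol group, while astrocyte, oligodendrocyte precursor and cortical excitatory neuron markers separate them.

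Marker genes of cells that make or use cholesterol were also compared between diets. In bulk tissue, fewer cells of a type and less RNA per cell cannot be told apart. All 10 markers of striatal neurons and all 7 of choroid plexus and ependyma, given at the end, were also higher on average in ZnR mice. Whether the dissected tissue differed between diets was not tested. Of 6 measured markers of cortical excitatory neurons all were lower on average and 5 fell, led by Nrn1 (-1.27 ± 0.10) and Slc17a7 (-1.08 ± 0.12). Their mean level was 9.04 to 9.16 in control and 8.04 to 8.24 in ZnR mice. Of these markers Emx1 lay at the level filter of 4 in ZnR mice 3, 7 and 11 (4.04, 3.99 and 3.99). The other cortical markers measured 6.79 or more in every mouse. All 9 astrocyte markers were higher on average, with a mean level of 10.91 to 10.96 against 10.63 to 10.76, and Gfap rose (0.79 ± 0.10, adjusted p = 0.0214) while Aldh1l1 measured 0.37 ± 0.10. All 8 oligodendrocyte markers were higher on average, but their mean overlapped (10.27 to 11 against 10.19 to 10.37), with Ermn at 0.49 ± 0.15 and Cnp at 0.35 ± 0.14, or 0.22 without ZnR mouse 11. All 7 precursor markers were higher on average (8.40 to 8.58 against 8.12 to 8.22), with Gpr17 at 0.34 ± 0.09 and Olig2 at 0.63 ± 0.20. The smallest difference of the 7 was 0.12, in Pdgfra and Ptprz1. No oligodendrocyte or precursor marker passed the threshold. Among the neuron and astrocyte markers, leaving out mice ended some calls while the differences kept their size. Nrn1 missed the threshold without control mouse 5, at -1.27, and Slc17a7 without control mouse 5 (-1.1), ZnR mouse 3 (-1.01) or ZnR mouse 11 (-1.08). Gfap passed without ZnR mouse 7 and missed the threshold without each of the other mice, at 0.72 to 0.82. Without the low-18S pair, which leaves 4 mice, the differences were -1.27, -0.91 and 0.74, with limma adjusted p of 0.0698, 0.0947 and 0.126. The part of these shifts in the values of the sterol genes was not tested.

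Over the whole array 373 of 25381 probe sets passed. The count was 101, 1 and 77 without control mouse 1, 5 or 9, and 18, 109 and 21 without ZnR mouse 3, 7 or 11. Array medians lay between 4.46 and 4.52, as normalization makes them, and pairs of arrays correlated at 0.988 to 0.995. The 18S ribosomal RNA controls were low in one mouse of each diet, control 1 (mean 9.09) and ZnR 3 (8.44), and reached 10.9 to 12.4 in the remaining 4. No sterol gene passed with this pair as a block, where 550 of all 25381 probe sets passed. None passed with the pair left out either, but there only 1 probe set of the whole array passed, so that fit says little about the sterol genes.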

How the data were processed

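Total RNA (500 ng per mouse) was, per the labels' protocols, hybridised to Mouse430_2 arrays from Affymetrix. The deposited table gives log2 expression by probe set and mouse. The submitters' processing notes name GCRMA 2.28.0 and R 2.15.1. This method corrects background by probe sequence and equalises distributions between arrays, so a change of total RNA cannot be seen. The sources used here name no genome build and no later filter.

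The table held 45101 probe sets, 64 of them array controls. The platform annotation gave 34945 others 1 gene symbol, 932 several and 9160 none. Symbols were updated through Entrez identifiers from a RefSeq gene table (34741 matched). Kept probe sets exceeded 4 on at least 3 arrays (25381, or 56.4%). Diets were compared by lmFit and eBayes of limma 3.58.1 under R 4.3.3, as a 2-sided test with no covariate, since mouse numbers differ between diets. The p-values rest on the spread between mice. The fit was tested on simulated data. Figures used Python 3.11.15 and matplotlib 3.10.9.

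Each gene was represented by its kept probe set of highest mean. By rule, values in every mouse are given for members with a probe set at unadjusted p under 0.05 or a difference of at least 0.3 in the probe set of highest mean (Srebf1, Npc2, Hsd17b7 and Sc5d); other members shown by mouse were chosen after their values were seen. Of each companion list, genes past the threshold and the 2 of smallest p are named, as are the 2 of smallest p of each marker list. The members, lists and rules were chosen with earlier results of these data known. Alternatives covered the level filter, normalization, the 18S pair, variance moderation, array weights, the unit counted and each mouse left out. Promoters came from RefSeq, build GRCm38.p6.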

Additional observations from a re-analysis of the deposited data

How the results depend on the processing

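The count of 0 sterol probe sets past the threshold held in 16 of 17 alternative fits and became 1 with array weights. Without 1 mouse it was 0 in all 6 fits, in which only 1 to 109 of all 25381 probe sets passed. So few calls over the whole array give this 0 little weight. The median difference of the sterol genes ranged from -0.08 to 0.03 when a mouse was left out, with -0.08 without control mouse 9. Of the 30 genes 14 kept their sign in all alternatives, 7 lower and 7 higher, as did 32 of the 54 probe sets. The count over all probe sets was 373, and it was 1 without the low-18S pair, 916 with a mean-variance trend, 2003 with array weights and 1 to 109 without 1 mouse. The count of companion genes, by probe set of highest mean, was 1. It was 2 with a filter at 6, 3 when that pair of mice formed a block and 0 when the pair was left out. It was 3 with a trend, 5 with array weights and 0 in all 6 fits without 1 mouse. Among markers Pecam1 turned to -0.02 with array weights. The causes were not tested. No paired analysis was possible because the mouse numbers differ between diets and no label ties a mouse of one diet to a mouse of the other. Signal over background limits the 11 sterol probe sets under the level filter, which were not tested.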

Other observations

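Markers of other cell types in and around the dissected tissue were read beside the sterol genes. Of 7 choroid plexus and ependyma markers all were higher on average, with a mean level of 5.45 to 5.65 in ZnR and 4.06 to 4.96 in control mice, and Tmem212 (1.44 ± 0.23 SE, limma adjusted p = 0.0374) and Clic6 (1.53 ± 0.26, adjusted p = 0.0433) rose. Of the 7, Ccdc153 measured 3.06, 3.91 and 3.73 in control mice and 4.23, 4.16 and 4.11 in ZnR mice. It met the level filter of 4 only through the ZnR mice, so it could only count as higher. Tmem212 passed only without control mouse 1, and Clic6 likewise, among the fits that left out 1 mouse. All 10 markers of striatal medium spiny neurons were higher (10.93 to 11.12 against 10.20 to 10.59), with Isl1 (1.13 ± 0.14) and Gpr6 (0.58 ± 0.08) past the threshold; Gpr6 passed in no fit that left out 1 mouse and Isl1 passed without ZnR mouse 7 or ZnR mouse 11. The 3 leptomeningeal markers measured were higher without passing, led by Dcn (1.09 ± 0.40) and Col1a2 (0.61 ± 0.27, and 0.38 without ZnR mouse 11), and their mean overlapped between diets (5.48 to 6.74 against 4.92 to 5.79).

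Of 8 interneuron markers 4 were higher and 4 lower (10.09 to 10.22 against 10.12 to 10.34). Slc32a1, Gad2, Lhx6 and Gad1 were the higher ones, and Vip, Npy, Pvalb and Sst the lower ones. Vip fell (-1.0 ± 0.12, adjusted p = 0.0208), passing without ZnR mouse 7 alone among the 6 fits that left out a mouse, and Slc32a1 measured 0.56 ± 0.11 (0.0607). Of 5 mural markers 4 were higher (7.57 to 7.84 against 7.41 to 7.56), with Pdgfrb and Vtn both at 0.39 (Vtn at 0.25 without ZnR mouse 11), and of 7 endothelial markers 6 were higher (5.54 to 5.78 against 5.51 to 5.63), with Cldn5 at 0.34 ± 0.12 and Pecam1 at 0.24 ± 0.15, the latter at 0.15 without control mouse 1 and 0.40 without control mouse 5. Of 7 microglia markers 6 were lower (7.44 to 7.62 against 7.54 to 7.65), with C1qb at 0.14 ± 0.08 and P2ry12 at -0.16 ± 0.12, the latter at -0.28 without ZnR mouse 3 and -0.08 without ZnR mouse 11.

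Of the 17 sterol genes with more than 1 kept probe set, 6 had probe sets that differed in sign. The 11 sterol probe sets under the filter had means of at most 3.69 and were not tested.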
